A study of Mus musculus with 8 samples.

Results

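Of 48237 annotated nuclei from the mouse paraflocculus and flocculus (PF/F), 406 (0.842%) carried the authors' cell type label GABA.interneuron, and these nuclei are described here. Members were all nuclei with exactly that label in the deposited PF/F annotation, matched by library and barcode to the raw UMI matrices. The class held 101 of 12255 annotated nuclei in WT library 1, 49 of 13835 in Tbx1+/- library 1, 79 of 9153 in WT library 2 and 177 of 12994 in Tbx1+/- library 2. Values per library are given in that order below. The annotation has 16 cell types. Among them are a larger one for differentiated GABAergic interneurons (Diff.GABA.interneuron, 3601 nuclei), their progenitors (GABA.interneuron.progenitor, 2049 nuclei) and Purkinje cells (1299 nuclei).

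The study dissected the PF/F, lateral lobules of the cerebellum, from Tbx1+/- mice and WT littermates on a C57BL/6J background at postnatal day 5.5 and sequenced single-nucleus RNA. Tbx1 encodes a T-box transcription factor within the region deleted in 22q11.2 deletion syndrome. All cells of the mutant mice, the nuclei described here included, were heterozygous, so that loss of Tbx1 was not limited to a cell type. Each library pooled frozen tissue of 5 mice of both sexes, and the 4 libraries formed 2 batches of animals with 1 WT and 1 Tbx1+/- library each, which the replicate numbers mark. Individual mice cannot be told apart within a pool.

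GABAergic neurons make the inhibitory transmitter GABA from glutamate with the 2 glutamate decarboxylases encoded by Gad1 and Gad2 and load it into vesicles with the transporter Slc32a1. In the cerebellum, stellate, basket and Golgi interneurons descend from Pax2-positive precursors that are still being born and migrating in the first postnatal week. Purkinje cells are the other main GABAergic neurons of the cortex, and they are recognised by Car8, Calb1 and Pcp2.

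The 406 nuclei yielded 653189, 257827, 625467 and 1461763 UMIs in the 4 libraries, and levels are given as counts per 1000000 UMIs (CPM), with UMIs summed over the nuclei of a type in a library. The median nucleus of the class held 7027.5 UMIs and 3103 genes, which ranked the class 2nd in depth of the 16 types, between the type labelled Progenitors (8241 UMIs) and Purkinje cells (6887 UMIs). By library the median was 6413, 5259, 7604 and 8069 UMIs. The median mitochondrial share was 0.806%, 0.889%, 0.277% and 0.335%, and it was lower in both libraries of batch 2. No barcode was shared between libraries within the class, whereas 30 to 60 barcodes were shared by pairs of libraries over all annotated nuclei. In the deposited UMAP the class formed an island: the rectangle spanning the 1st to 99th percentiles of its coordinates held 392 nuclei of the class and 1 nucleus of any other type. Annotated types were built from the expression of these same nuclei, so all differences between the class and other types below are descriptions without a test.

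Both decarboxylase genes were detected in every library. Gad2 stood at 294, 268, 310 and 317 CPM, with a mean of 297 ± 21.9 (SD, n = 4), the highest of the 16 types. In Diff.GABA.interneuron nuclei it ranged from 205 to 276 CPM and in Purkinje cells from 149 to 184. The class thus overlapped Diff.GABA.interneuron only by its lowest library and lay above the Purkinje range. Gad1 was measured at 144, 140, 81.5 and 93.7 CPM, with a mean of 115 ± 31.7 (SD, n = 4), lower in both libraries of batch 2. In contrast to Gad2, it was far below Diff.GABA.interneuron (750 to 893 CPM) and overlapped the Purkinje cells (74.2 to 85.4 CPM). Slc32a1 was detected at 115, 147, 51.2 and 62.9 CPM, against a Diff.GABA.interneuron range of 94.6 to 116 CPM. In batch 1 the WT library was within that range and the Tbx1+/- library above it, and both libraries of batch 2 were below it. In granule neuron progenitors (GNPs), which should lack these genes, Gad1 and Gad2 averaged 13.7 and 6.70 CPM.

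By nucleus, 93.1% of the class held at least 1 UMI of Gad1 or Gad2, against 5.19% of GNPs, whose median depth was 2555 UMIs. When each nucleus was thinned to 2000 UMIs, which left out no nucleus of the class, these shares were 53.4% and 3.67%. In Diff.GABA.interneuron the share was 93.0%, and 81.8% after thinning, which was above the class. Thinning left out 345 nuclei of Diff.GABA.interneuron and 2244 GNPs. Gad2 was detected in 85.0% of the class (42.6% after thinning) and Gad1 in 51.7% (69 of 406 nuclei after thinning). For Diff.GABA.interneuron the order was the opposite, with Gad1 in 73.2% and Gad2 in 34.5% of thinned nuclei. Detection followed depth within the class: Gad1 was found in 56.2% of the deeper 203 nuclei and in 47.3% of the shallower 203.

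Several genes that define newborn cerebellar interneurons were at or near background in the class, and for these genes the data went against the name given to it. Pax2, the transcription factor of newborn cerebellar inhibitory interneurons, stood at 21.4, 7.76, 6.40 and 6.84 CPM, whereas Diff.GABA.interneuron ranged from 501 to 659 CPM. It was seen in 3.45% of the class, against 3.93% of Purkinje cells of similar depth. Slc6a5, the neuronal glycine transporter of glycinergic interneurons, was measured at 1.53, 3.88, 0 and 0.684 CPM, against 149 to 170 CPM in Diff.GABA.interneuron. Tfap2b, an AP-2 factor of the cerebellar GABAergic lineage, reached 16.8, 7.76, 4.80 and 6.84 CPM, the lowest mean of the 16 types, and ranged from 338 to 411 CPM in Diff.GABA.interneuron. Of 19 listed factors of the GABAergic lineage of the cerebellum, 2 had at least 10 UMIs in every library of the class (of all features in the files, 15.7% did), namely the LIM homeobox genes Lhx1 and Lhx5. Lhx1 averaged 60.6 against 87.5 CPM in Diff.GABA.interneuron and Lhx5 53.7 against 68.8 CPM. Summed over the 19 factors, the class was at 150 ± 43.7 CPM (SD, n = 4), against 1325 CPM in Diff.GABA.interneuron and 385 CPM in all other nuclei.

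The list of 13 molecular layer interneuron genes divided. Of 11 tested against Diff.GABA.interneuron, 2 were at least 2-fold higher in each library (Ptprk and Galntl6) and 6 lower, Kit and Nxph1 among them, with a median log2 difference of -1.51 (over all 12954 genes tested, 3.11% were higher, 3.14% lower and the median was -0.14). Nxph1, a neurexin ligand, averaged 183 CPM against 2600 CPM, and Purkinje cells and GNPs were at 33.3 and 28.5 CPM. The list summed to 6214 ± 743 CPM (SD, n = 4) in the class and 7159 CPM in Diff.GABA.interneuron, and 2 types had a higher sum. Of 12 listed genes of Golgi and Purkinje layer interneurons, 9 were tested and Slc6a5 alone was lower, with a median of -0.85. Their sum was 536 ± 44.5 CPM (SD, n = 4), against 955 CPM in Diff.GABA.interneuron and 377 CPM in all other nuclei. The class is called below by its label or by its leading genes, and no other cell type name is given to it.

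**Figure D1:**
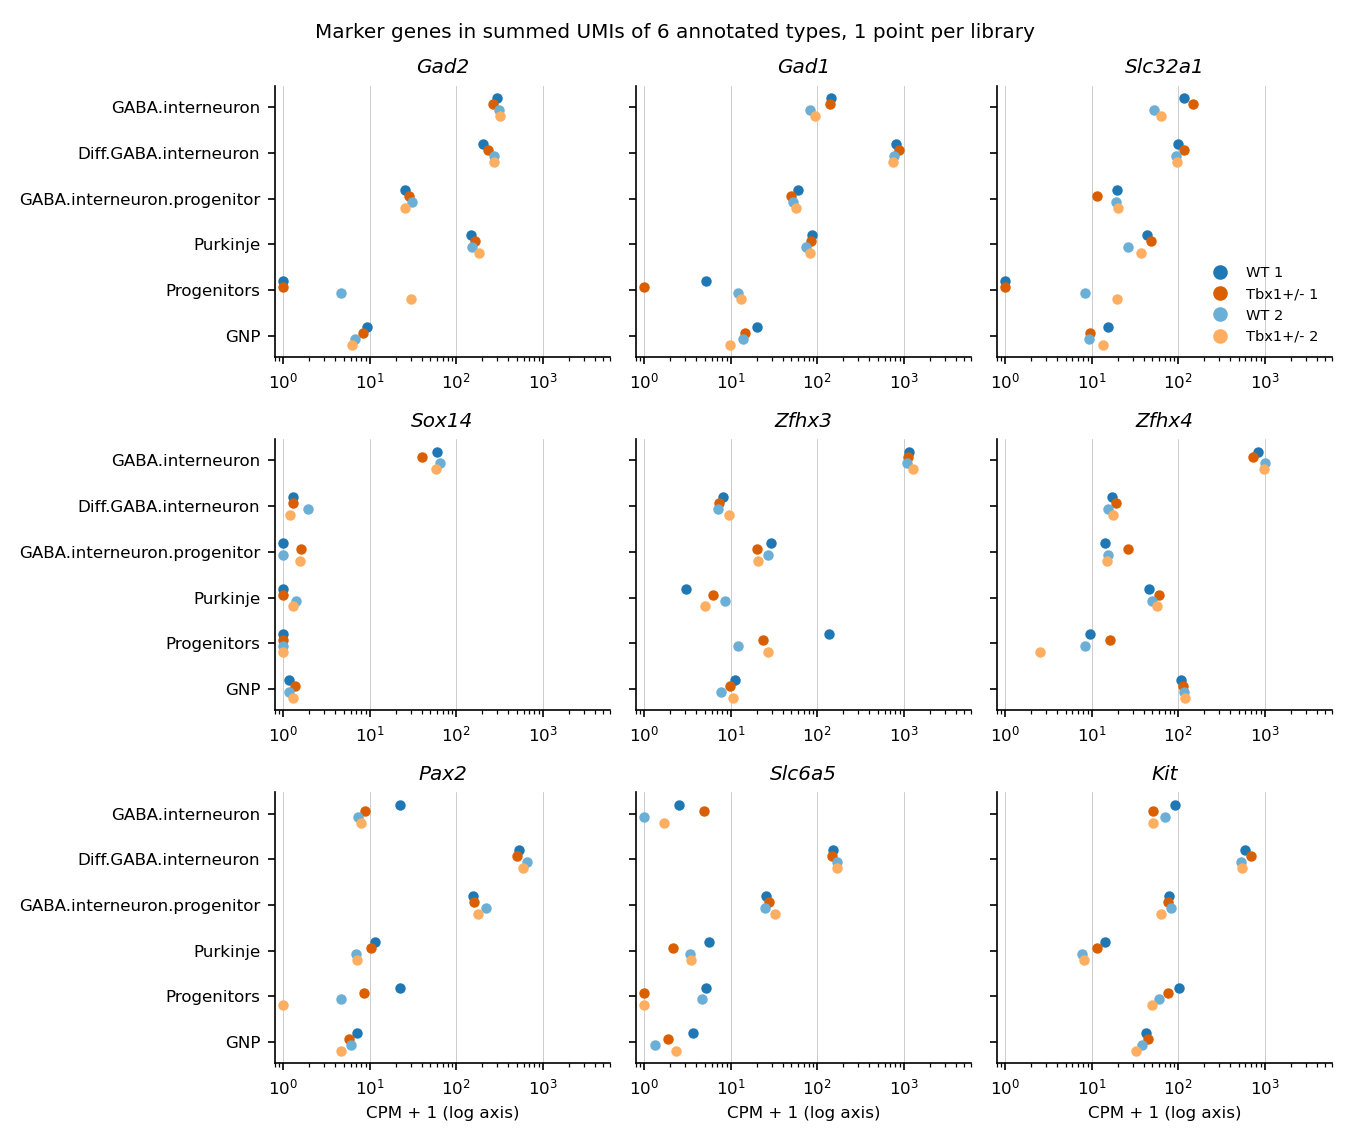
CPM + 1 of 9 marker genes (log axis) in the GABA.interneuron class and 5 other types, with 1 point per library coloured by genotype and batch. Gad2 of the class sits at 268 to 317 CPM, beside Diff.GABA.interneuron and above Purkinje cells, while Pax2 of the class (6.40 to 21.4 CPM) lies far below that of Diff.GABA.interneuron (501 to 659 CPM).

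Genes that mark some other neurons were low. Car8, a Purkinje cell gene, averaged 17.7 ± 4.35 CPM (SD, n = 4) against 2230 CPM in Purkinje cells, and Slc17a6, the vesicular glutamate transporter of many glutamatergic neurons, averaged 16.4 ± 5.60 CPM, the lowest mean of the 16 types. Among 14 transcription factors of forebrain GABAergic neurons, 11 had no UMI in the class, as had 36.2% of all features in the files. Of 20 Hox genes, which mark the hindbrain caudal to the cerebellum and the spinal cord, 18 had none. Both lists were also nearly absent from all other nuclei, where they summed to 6.81 and 1.31 CPM. Monoamine and cholinergic genes (14 listed) summed to 3.20 to 23.9 CPM per library. The list of 25 midbrain and hindbrain GABAergic neuron factors summed to 2322 ± 234 CPM (SD, n = 4), against 1297 CPM in all other nuclei, and 2 types had a higher sum. Most of the sum in the class came from Zfhx3 and Zfhx4, at means of 1156 and 895 CPM. In all other nuclei these 2 genes averaged 19.9 and 56.1 CPM and made up little of the sum. The sum thus does not describe the rest of the list, which was lower in the class than in all other nuclei. Of 10 of its genes tested against Diff.GABA.interneuron, 3 were at least 2-fold higher in each library (Sox14, Zfhx3 and Zfhx4) and 3 lower (Zfpm2, Meis2 and En2), with a median of -0.45, against the 3.11% and 3.14% of all genes tested. Of the 25, 8 had no UMI in the class, a share near the 36.2% of all features, and Gata2, Gata3 and Tal1, which specify many midbrain GABAergic neurons, were among them. A count of 0 among the 2998246 UMIs of the class allows up to 1.00 CPM over the 4 libraries together.

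Neuropeptide genes (22 listed) summed to 185 to 349 CPM per library, above the 160 CPM of all other nuclei, and 3 types had a higher sum. Chga and Scg2, secretory granule proteins, were the neuropeptide-list genes with at least 10 UMIs in each library, at 126 ± 32.6 and 73.6 ± 23.7 CPM (SD, n = 4).

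The 3 midbrain and hindbrain factors that were at least 2-fold higher than in Diff.GABA.interneuron in each library are described next. Sox14, an SRY-box factor known from GABAergic neurons of the midbrain and thalamus, was found at 59.7, 38.8, 64.0 and 56.8 CPM, with a mean of 54.8 ± 11.1 (SD, n = 4). All other annotated nuclei together gave 49 Sox14 UMIs of 171305395, or 0.286 CPM, against 172 of 2998246 in the class. The highest other type by mean, RL.early, reached 1.39 CPM. Sox14 was seen in 32.5% of the class (12.1% after thinning) and in 0.0744% of GNPs (0.014% after thinning), and within the class it was seen in 23.2% of the shallower and 41.9% of the deeper nuclei.

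Zfhx3 and Zfhx4 encode large zinc finger homeodomain factors that are expressed in differentiating neurons. Zfhx3 reached 1148, 1105, 1103 and 1267 CPM, with a mean of 1156 ± 76.9 (SD, n = 4), and was detected in 99.8% of the class. The next type was Immune, at 476 CPM, and Diff.GABA.interneuron and Purkinje cells averaged 7.04 and 4.70 CPM. Zfhx4 was measured at 847, 729, 1010 and 994 CPM, against 391 CPM in the next type, Meningeal, and 16.3 CPM in Diff.GABA.interneuron. For both genes each of the 4 libraries of the class lay above the mean of every other type.

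Ranking all genes with at least 10 UMIs in the class in each library (5067 genes) by the mean over libraries of log2((CPM + 5) in the class / (CPM + 5) in all other annotated nuclei) gave 25 leading genes, from 5.55 for Zfhx3 to 3.66 for Oprk1 and Gm47757. In 24 of the 25 the class had the highest mean of the 16 types, the exception being Pdzd2, a PDZ domain protein, which was higher in Pericyte (915 against 848 CPM). For 22 of the 25, each library of the class was above the mean of every other type. The next type was Progenitors for 12 genes and Purkinje for 3. Zfhx3, Dchs2 and Cntnap5a had the largest differences among genes of known protein product.

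Among the leading genes, 5 encode contactins or contactin-associated proteins, a grouping made after the genes were seen. The share of this family among all ranked genes is not given here, so the count is not read as an excess. Cntnap5a, a contactin-associated protein, stood at 3066, 3029, 3880 and 3696 CPM, against 1923 CPM in Purkinje cells. Cntn5, a contactin, was measured at 4498, 4771, 6133 and 7219 CPM, against 3071 CPM in Purkinje cells. Both genes were higher in batch 2 in either genotype. Cntn4 (mean 2211 CPM), Cntnap5c (423 CPM) and Cntnap3 (82.6 CPM) are the other 3, and Dchs2, a large cadherin, averaged 290 ± 29.9 CPM (SD, n = 4). Oprk1, the kappa opioid receptor, was low but ordered: 67.4, 62.1, 75.1 and 59.5 CPM in the class and 16.4 CPM in the next type, Progenitors. Pex5l, which regulates trafficking of HCN channels, averaged 923 ± 91.8 CPM (SD, n = 4), the highest mean of the 16 types.

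**Figure D2:**
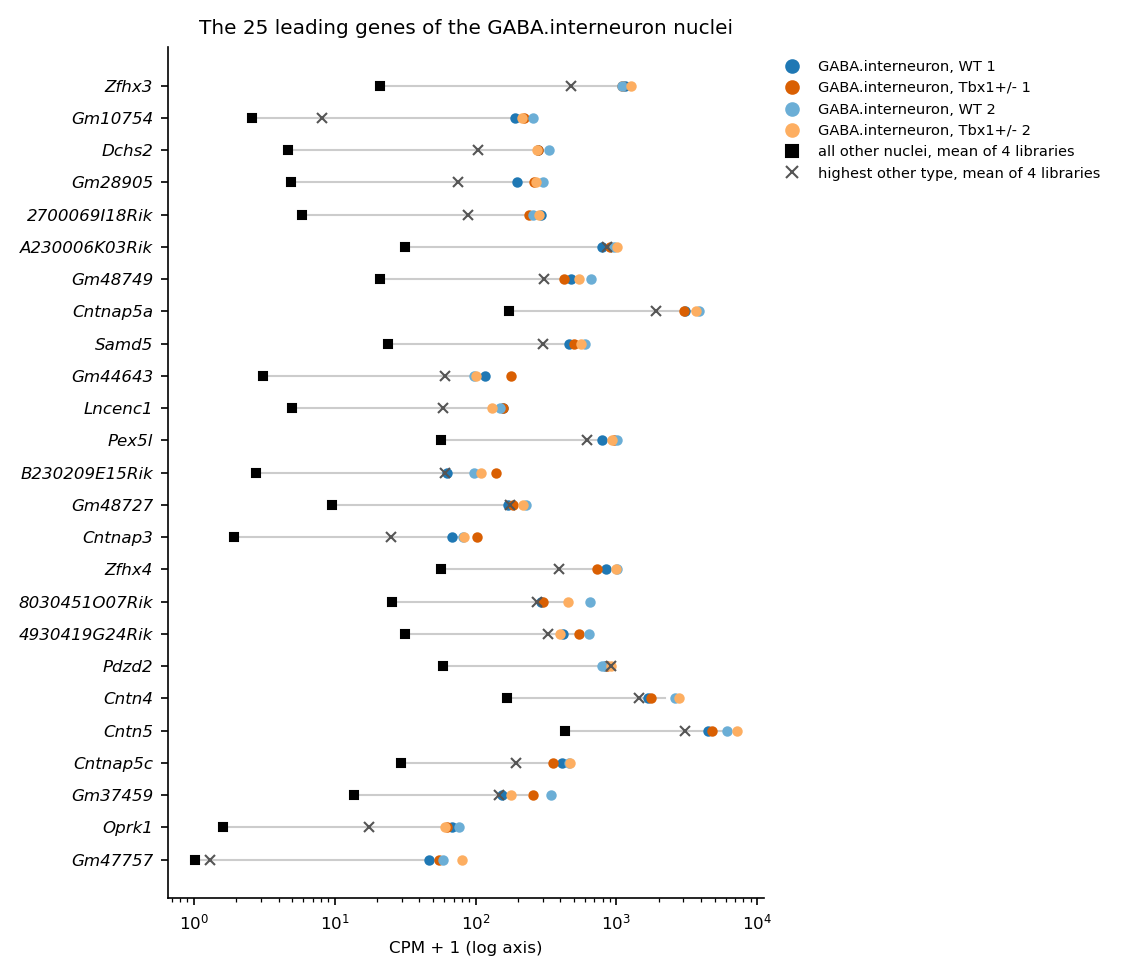
CPM + 1 (log axis) of the 25 leading genes, with 1 point per library of the GABA.interneuron class, a square for the mean of all other nuclei and a cross for the highest other type. Zfhx3 (1103 to 1267 CPM) and Cntnap5a (3029 to 3880 CPM) lie to the right of the cross, whereas for Pdzd2 the cross (Pericyte, 915 CPM) lies above the mean of the class (848 CPM).

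Unnamed transcripts with no known protein made up 12 of the 25 leading genes. The share of such transcripts among the 5067 ranked genes is not given here, so the count is not read as an excess. Several of the 12 lay beside each other or beside a named leading gene in the genome (GRCm38 coordinates, GENCODE vM21 annotation). In all, 12 of the 25 (48.0%) were within 1 Mb of another leading gene, whereas 84 of the 5064 ranked genes with coordinates (1.66%) were within 1 Mb of a leading gene. On chromosome 10, Gm48727 (8903981 to 8945137), Gm48749 (9336682 to 9395259), Samd5 (9622936 to 9675208) and Gm28905 (9976627 to 10207981) followed one another, and on chromosome 7 Gm44643, A230006K03Rik and B230209E15Rik did so on one strand. A230006K03Rik was measured at 788, 900, 966 and 1011 CPM, and the Progenitors type averaged 860 CPM, so that this transcript did not separate the class from that type. On chromosome 3, 2700069I18Rik (5177586 to 5220841, minus strand) is annotated antisense to Zfhx4 (5218526 to 5415857), and Pex5l (32949408 to 33143247) is overlapped by 4930419G24Rik and Gm37459. The partners lie on opposite strands, and how reads within those overlaps were assigned between them was not checked here.

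Gm47757, a lincRNA gene at 99848283 to 99858313 on chromosome 9, lies 15.8 kb from Sox14 (99874106 to 99876170) on the same strand. It was found at 45.9, 54.3, 57.6 and 79.4 CPM in the class, and its highest mean in another type was 0.293 CPM. The pattern over types was thus like that of Sox14, which is not itself among the 25 leading genes because the 5 CPM added to each level shrinks differences of low genes.

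Over 13099 genes, log2 levels of the class correlated most with those of Diff.GABA.interneuron (mean Pearson's r 0.886 over the 4 libraries, range 0.865 to 0.899) and of Progenitors (0.886, range 0.835 to 0.925), followed by Purkinje (0.869). GABA.interneuron.progenitor (0.742) and GNP (0.723) were further away. These correlations are across genes, which are not independent replicates, within types that share library and background RNA, and the 152 Progenitors nuclei are few.

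Against Diff.GABA.interneuron, 403 of 12954 genes tested (3.11%) were at least 2-fold higher in the class in each of the 4 libraries and 407 (3.14%) at least 2-fold lower. The median log2 difference over these genes was -0.14. Zfhx3 had the largest difference (6.59), and it was followed by Schip1, a scaffold protein of the axon initial segment, at 3596, 3840, 4229 and 3803 CPM against a mean of 77.9 CPM. Bnc2, a zinc finger protein, averaged 193 CPM against 1.06 CPM. On the lower side Pax2 (-5.29) led, followed by Dscaml1 (-4.90), an adhesion molecule of the immunoglobulin superfamily. Zfpm2 (-4.25), Unc5c, a netrin receptor (-4.29), and Ntn1, its ligand (-4.22), were also among the 12 lowest. Unc5c averaged 529 CPM in the class and 10342 CPM in Diff.GABA.interneuron.

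Receptor and channel genes divided between both directions. Gabra3, an alpha subunit of GABA-A receptors, was higher in the class and stood at 158, 120, 193 and 172 CPM against 48.2 to 67.1 CPM, without overlap. Other subunits were lower, Gabra2 averaging 27.1 against 109 CPM and Gabrb2 36.0 against 174 CPM. Slc12a5, the chloride extruder KCC2 of maturing neurons, was measured at 136, 159, 122 and 116 CPM against 33.9 to 52.8 CPM and was the 1 chloride transporter of 4 tested that was called. Slc12a2, the chloride importer NKCC1, averaged 52.4 and 62.6 CPM. Among 11 tested genes of glycine receptors and the inhibitory synapse, Glra2 was lower (74.9 against 289 CPM) and none higher.

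Glutamate receptor genes also divided. Of 16 ionotropic subunits tested, 3 were higher (Grin2d, Grik1 and Grik4) and 1 lower (Gria3), with a median of 0.12. The ionotropic list summed to 9788 ± 744 CPM (SD, n = 4) in the class and to 12032 CPM in Diff.GABA.interneuron. Grik1, a kainate receptor subunit, was found at 317, 221, 361 and 471 CPM against 30.4 to 69.2 CPM, and Gria3, an AMPA receptor subunit, averaged 99.6 against 512 CPM. Of 7 metabotropic receptors tested, Grm5 and Grm7 were higher and Grm8 lower, with a median of 0.39. Grm7 stood at 1678, 1672, 1839 and 1820 CPM against 343 to 623 CPM. Summed over the list, metabotropic receptors reached 5192 ± 390 CPM (SD, n = 4) in the class, against 2384 CPM in Diff.GABA.interneuron, and no other type had a higher sum.

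Of 21 tested sodium and potassium channel genes of neuronal firing, 4 were higher and 5 lower, with a median of -0.04. Scn9a, a sodium channel subunit, was measured at 251, 279, 296 and 303 CPM against 36.2 to 52.2 CPM, and Scn1a averaged 334 against 89.9 CPM. Kcna1 and Kcna2, Kv1 potassium channels, averaged 1.62 and 3.98 CPM against 21.0 and 45.7 CPM. Of 19 tested genes of neuron maturation, Elavl4 and Celf4, which are neuronal RNA-binding proteins, were higher and Nhlh2, Syt1, Syt2 and Rbfox1 lower, with a median of -0.01. Syt1, a calcium sensor of synaptic vesicles, stood at 136, 81.5, 101 and 198 CPM, the lowest mean of the 16 types, against 983 to 1271 CPM in Diff.GABA.interneuron. Elavl4 averaged 946 ± 99.6 CPM, the highest of the 16 types, against 228 CPM.

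**Figure D3:**
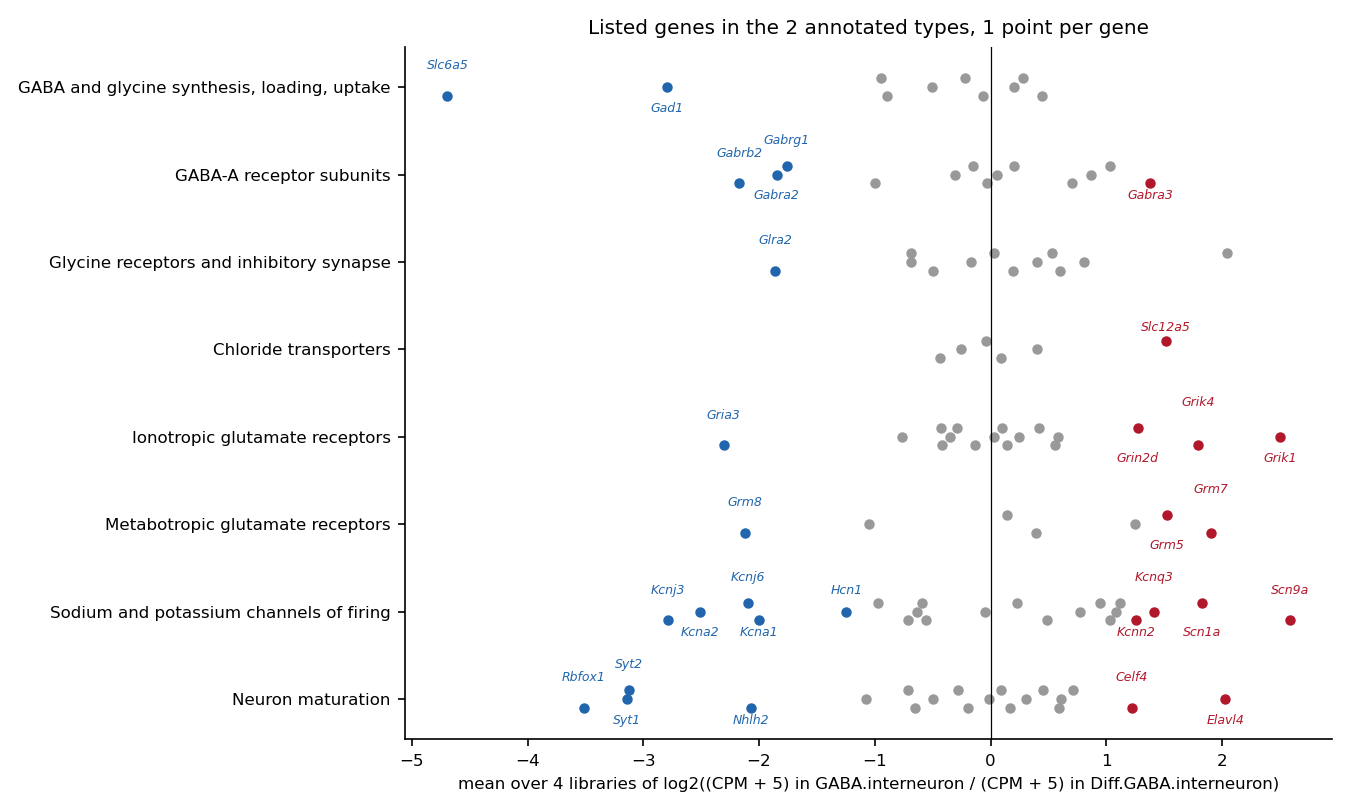
Mean over 4 libraries of log2((CPM + 5) in GABA.interneuron / (CPM + 5) in Diff.GABA.interneuron) for listed genes, grouped by list, with genes at least 2-fold higher in each library in red and at least 2-fold lower in blue. Gabra2 and Gabrb2 lie to the left and Gabra3 to the right among GABA-A receptor subunits, and Scn9a and Grik1 lie far to the right.

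Against GABA.interneuron.progenitor, 770 of 11118 genes tested (6.93%) were at least 2-fold higher in each library and 1232 (11.1%) lower, with a median log2 difference of -0.38. Cell cycle genes made up a group on the lower side: 25 of 26 listed G2/M genes and 21 of 26 S phase genes were lower and none higher. Only 1 gene of each list reached 10 UMIs in every library of the class. Nearly all were thus tested because of their level in the progenitors, which favoured lower calls. Mki67, a marker of cycling cells, averaged 23.1 CPM in the class, 146 CPM in the progenitors and 252 CPM in GNPs. Summed over each list, S phase genes were at 252 ± 20.4 CPM (SD, n = 4) and G2/M genes at 219 ± 45.3 CPM, close to Purkinje cells (275 and 244 CPM). Of 11 tested lineage factors 10 were lower, Tfap2b (-5.84) the most. The same limit holds for them, since 2 of the listed factors reached 10 UMIs in every library of the class. On the higher side Snhg11 and Meg3, noncoding RNAs of neurons, averaged 4384 and 10376 CPM against 22.6 and 201 CPM. All 5 metabotropic receptors tested, of 7 listed, were higher. Each of the 5 reached 10 UMIs in every library of the class, so none entered through the progenitors alone. This favoured higher calls.

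Against Purkinje cells, 376 of 11529 genes tested (3.26%) were at least 2-fold higher in each library and 522 (4.53%) lower, with a median log2 difference of -0.01. Of 12 Purkinje cell genes 11 were lower. These genes mark Purkinje cells, so this direction was largely given by the annotation. Only 6 of the 12 reached 10 UMIs in every library of the class. The others were tested because of their level in Purkinje cells, which favoured lower calls. Itpr1, the inositol trisphosphate receptor of Purkinje cells, averaged 26.9 against 5518 CPM, and Rora, a nuclear receptor that Purkinje cells need, 341 against 7565 CPM. Foxp2 and Bcl11a, also on that list, were lower than in Purkinje cells (272 against 1961 CPM and 102 against 709 CPM). Both were higher in the class than in Diff.GABA.interneuron (61.7 and 24.3 CPM). Celf4 (1982 against 57.3 CPM) and Adarb2, an RNA-editing enzyme family member (2296 against 68.8 CPM), were among the 12 highest.

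Markers of further cell types were low over the class. Astroglial genes (10 listed) summed to 404 to 712 CPM per library, against 1934 CPM in all other nuclei, and oligodendrocyte lineage genes (11 listed) to 72.0 to 115 CPM against 308 CPM. Microglia and immune genes (8 listed) summed to 119 to 166 CPM, and endothelial and mural genes (8 listed) to 19.9 to 34.9 CPM. Genes of the meninges and choroid plexus (8 listed) summed to 76.6, 97.0, 59.2 and 160 CPM, highest in Tbx1+/- library 2. Granule cell genes (14 listed) were at 617 to 874 CPM, against 3670 CPM in all other nuclei, and 13 of the 15 other types had a higher sum. Erythroid genes (5 listed) set 1 library apart, with sums of 107, 175, 130 and 1172 CPM. A single nucleus of Tbx1+/- library 2 held 1488 haemoglobin UMIs, the next highest nucleus 5, and without it Hbb-bs, a beta-globin gene, fell from 767 to 75.8 CPM in that library. Results between genotypes are given with and without it.

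Clustering of the 406 nuclei at 1 fixed setting gave 6 sub-clusters of 14 to 102 nuclei, and Gad1 or Gad2 was detected in 90.3% to 100% of each. Sub-clusters were defined by expression, so their leading genes are descriptions. Zfhx3 was between 859 and 1338 CPM in all 6, so that it ran through the class. Sox14 was between 40.4 and 72.3 CPM in all 6, on only 8 to 53 UMIs each, and was thus not limited to 1 sub-cluster. Sub-cluster 1 (66 nuclei) had no strong leading gene: Cited2, a transcriptional coregulator and 2nd on its list, was at 46.8 CPM against 13.8 CPM in the remaining nuclei.

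Sub-cluster 3 (46 nuclei) was led by E130114P18Rik (4.38), by Erbb4, a neuregulin receptor (4.20), at 1301 against 66.3 CPM, and by Ror1 (4.12). Nfia and Nfib, nuclear factor I genes, followed (3.58 and 3.55), with Nfib seen in 46 of 46 nuclei. Its nuclei came unevenly from the libraries, 20, 6, 2 and 18, and granule cell genes summed to 1981 CPM in it, against 402 to 813 CPM in the other 5. The part of granule cell RNA in these nuclei was not tested. Sub-cluster 6 (14 nuclei) was led by 8030451A03Rik (7.39), by Tnc, the matrix protein tenascin C (5.99), and by Cyp26b1, a retinoic acid-degrading enzyme (5.62). It drew 3, 2, 4 and 5 nuclei from the libraries. Astroglial genes summed to 1885 CPM in it, and Slc1a3, a glial glutamate transporter, was at 596 CPM, against 10.6 to 42.8 CPM in the other 5. Whether astroglial RNA had a part in that set was not tested. Gad1 or Gad2 was found in all 14 nuclei, which had the highest median depth of the 6 sub-clusters (8573.5 UMIs). Gad1 (43.8 CPM, on 5 UMIs), Gad2 (210 CPM), Zfhx3 and Zfhx4 had their lowest level of the 6 sub-clusters there. Both sub-clusters stayed whole at the finer resolution, which gave 8 sub-clusters. At the coarser resolution, which gave 4, they fell into 1 sub-cluster, of which they made up 76.7% and 23.3%, and most nuclei of sub-clusters 1, 2 and 4 shared another of 231.

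The other sub-clusters were separated by smaller differences. Sub-cluster 2 (85 nuclei) was led by Tafa2, a secreted chemokine-like protein, at 739 against 89.9 CPM, and also held more Syt1 (370 against 98.3 CPM). Sub-cluster 4 (102 nuclei) was led by the unnamed transcripts Gm45321 and Gm45323 and by Adcy2, an adenylyl cyclase (154 against 33.9 CPM). Sub-cluster 5 (93 nuclei) was headed by 4 haemoglobin genes of which 91.8% to 95.2% of UMIs came from the nucleus named above. The next gene was Slc24a4, a sodium, potassium and calcium exchanger, at 216 against 24.0 CPM and detected in 64.5% of its nuclei.

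**Figure D4:**
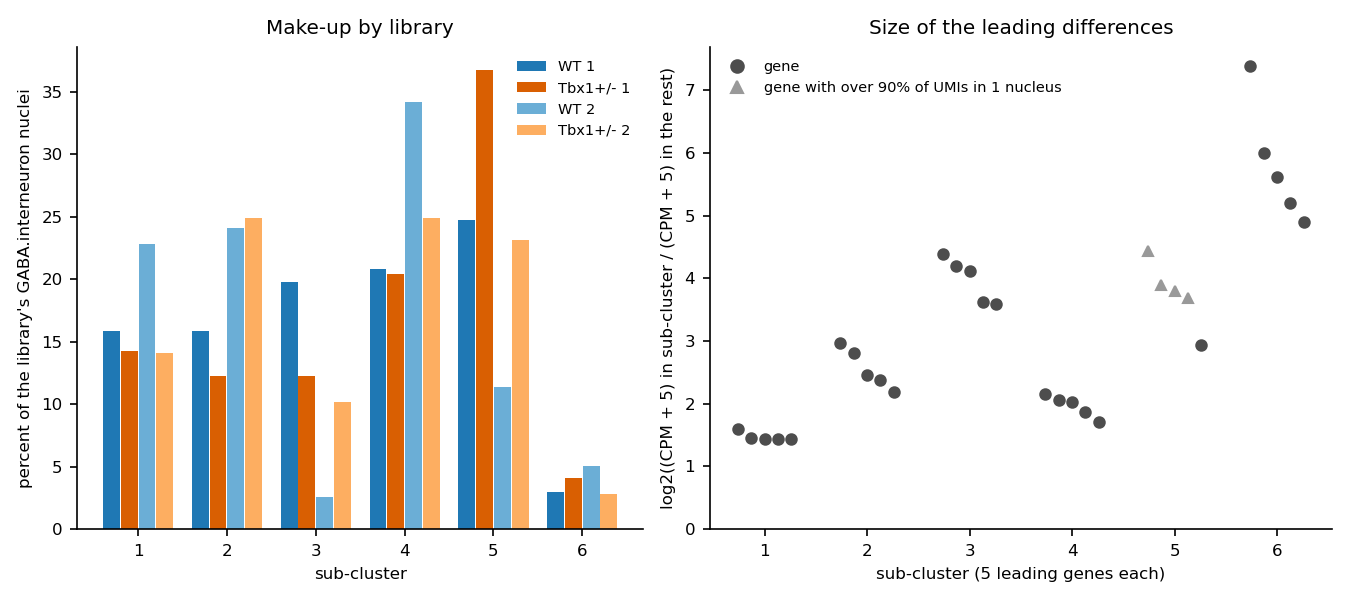
Left, percent of the nuclei of the class in each library that fell in sub-clusters 1 to 6. Right, log2((CPM + 5) in the sub-cluster / (CPM + 5) in the rest) of its 5 leading genes, with triangles for genes with over 90% of UMIs in 1 nucleus. Sub-cluster 3 held 19.8% of WT library 1 and 2.53% of WT library 2, and sub-cluster 6 has the largest differences, up to 7.39.

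The study asked whether cell types differ in number or expression between genotypes. The share of the class among annotated nuclei was 0.824% (exact 95% binomial interval 0.672 to 1.00), 0.354% (0.262 to 0.468), 0.863% (0.684 to 1.07) and 1.36% (1.17 to 1.58), where the intervals cover counting error only. In batch 1 the Tbx1+/- library had 0.430 times the WT share and in batch 2 1.58 times, and the Tbx1+/- libraries held both the lowest and the highest value. Over the 4 libraries the log2 difference, Tbx1+/- minus WT, was 0.02 (SE 0.70, edgeR quasi-likelihood test on the counts of the 16 types, adjusted p = 0.976), and the difference of mean log2 shares was -0.28. An exact two-sided permutation test of the latter gave p = 1, where 0.333 is the smallest p that 2 against 2 libraries allow. Without Tbx1+/- library 2 the difference was -1.25, and without Tbx1+/- library 1 it was 0.69 in the other direction. In both fits a lone Tbx1+/- library stood against the WT pair. The spread within Tbx1+/- could then not be estimated, so these differences are given without a test. The difference was 0.06 without WT library 2 and -0.01 without WT library 1, and with the replicate number as a block it was -0.24 (edgeR adjusted p = 0.987). The sign thus depended on which libraries entered.

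For expression, Tbx1 itself gave 1 UMI in the class, in WT library 2, so that the genotype could not be checked in these nuclei. Of 8707 genes tested on summed UMIs, 0 (0.0%) passed an adjusted p of 0.05 with a change above 1.5-fold in edgeR's quasi-likelihood test, and 132 (1.52%) had an unadjusted p under 0.05. DESeq2 called 0 genes as well, with 7 (0.0804%) at an unadjusted p under 0.05. Neither fit used the pairing of libraries by batch. Tests without any change would give a share near 0.05 on average, and both shares were below it. With the replicate number as a block, 432 genes (4.96%) had an unadjusted p under 0.05 in the edgeR test. That fit called 6 genes, which are named below. The sign of the change was the same in both batches for 49.6% of genes. On simulated counts of this comparison (8273 genes), the test called 30.8% of 2-fold, 89.1% of 4-fold and 100% of 8-fold changes. There were 8 false calls, and most changes of 2-fold were not called. These shares describe the simulated counts only, and whether they hold for the measured counts was not tested. In the measured counts Hbb-bs, at a log2 difference of 2.96, and Hmg20b, at -2.12, were not called.

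Genes that define the class are given with their intervals. Gad2 changed by a log2 of -0.01 (95% interval -1.06 to 1.04) and Gad1 by -0.01 (-1.30 to 1.29), Tbx1+/- minus WT. The intervals span 2-fold changes in either direction. Their width rests on 2 residual degrees of freedom, fewer than the edgeR test used, so they are wider than that test implies. The SE was 0.24 for Gad2 and 0.30 for Gad1. Sox14 differed by -0.22 (-1.47 to 1.03) and Zfhx3 by 0.10 (SE 0.23). Of the 25 leading genes 0 were called, with 13 higher and 12 lower in Tbx1+/- and a median of 0.01, beside a median of -0.01 over all genes tested. Of 42 listed genes of the 22q11.2 syntenic region 40 were in the files and 19 were tested: 0 were called, 10 were higher and 9 lower, and their median was 0.05.

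The 5 genes with the smallest p were 3 haemoglobin genes, Hmg20b and Ttr, none of which passed adjustment (edgeR adjusted p = 1 for each). Hmg20b, an HMG-box component of a corepressor complex, had 14, 1, 10 and 6 UMIs, which is 21.4 CPM in WT library 1 and 3.88 and 4.10 CPM in the Tbx1+/- libraries, and both Tbx1+/- libraries were below both WT libraries (log2 -2.12, SE 0.61). Ttr, the choroid plexus transport protein transthyretin, was found at 24.5, 34.9, 41.6 and 138 CPM (log2 1.67, SE 0.49), highest in Tbx1+/- library 2. The value rests on that library: the difference was 0.062 without it and 1.31 to 2.15 when any other library was left out. Ttr in all other nuclei was at 76.3, 131, 76.0 and 293 CPM, the same library being highest, and the part of free RNA in the class value was not tested.

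With the replicate number as a block, 6 genes were called: Hbb-bt, Hbb-bs, Hba-a1, Ttr (log2 1.46), Xist (0.79) and Gm45321 (-1.13). Without the nucleus rich in haemoglobin RNA the 3 haemoglobin genes were lost and Ttr, Xist and Gm45321 were still called. Xist, which is transcribed in female cells, stood at 374, 671, 656 and 1086 CPM in the class and at 553, 698, 1300 and 1541 CPM in all other nuclei, and each library pooled mice of both sexes. Of the 6 sex-linked genes tested, Xist and its antisense partner Tsix had positive log2 differences without the block (0.80 and 0.89, unadjusted p = 0.0344 and 0.0197 in the edgeR test) and the 4 Y-linked genes negative ones (-0.12 to -0.47), and none of the 6 was called there. The part of unequal numbers of female and male nuclei in the Xist value was not tested. Gm45321 was measured at 101, 42.7, 219 and 101 CPM, lower in the Tbx1+/- library of each batch, against 119, 97.1, 171 and 142 CPM in all other nuclei. It was also the leading gene of sub-cluster 4. Fits with 1 library left out keep a single library in 1 genotype, whose spread cannot be estimated, so calls from those fits are not given.

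**Figure D5:**
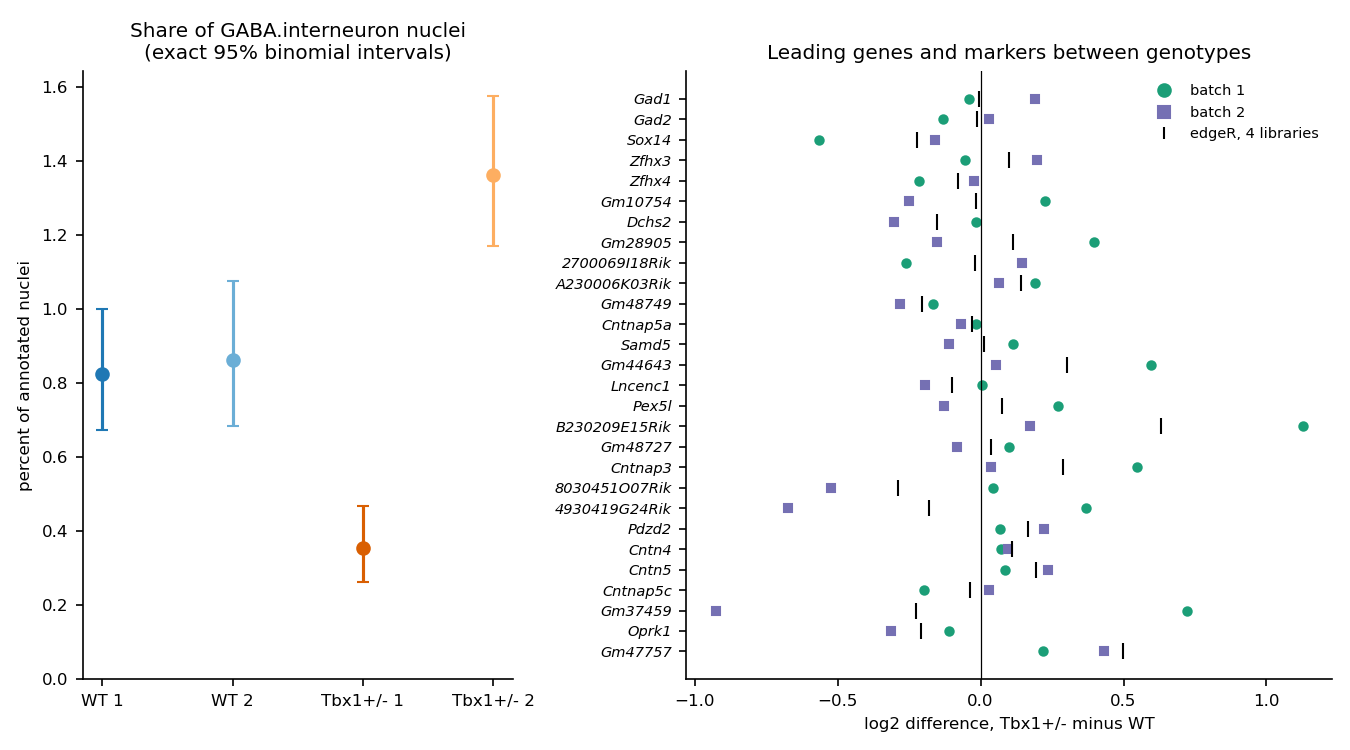
Left, share of the class among annotated nuclei per library in percent, with exact 95% binomial intervals. Right, log2 difference (Tbx1+/- minus WT) of markers and leading genes in batch 1, in batch 2 and in edgeR over 4 libraries. The share is 0.354% against 0.824% in batch 1 and 1.36% against 0.863% in batch 2, and Gad2 lies close to 0 in both batches (-0.13 and 0.03).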

How the data were processed

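Nuclei of the PF/F of WT and Tbx1+/- mice were sequenced on the 10x 3' platform. According to the submitters' processing notes and methods, the authors made the deposited UMI counts with Cell Ranger 7.0.0 on mm10 with intronic reads, and filtered and annotated nuclei by label transfer and curation. The authors' deposited annotation also held expected counts per nucleus after SoupX correction of free RNA, used only for a ratio to the raw totals, and UMAP scores. Neither correction for free RNA nor removal of doublets entered the matrices used here. As an alternative, the 8% of nuclei with the highest UMI count were left out. The PF/F matrices contained between 10583 and 17103 barcodes, with totals of 44713226 to 60627200 UMIs. Bone libraries were not used here.

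UMIs were summed per type and library. Differences between types used log2(CPM + 5), which understates changes of low genes. A gene was tested in such a comparison if it had at least 10 UMIs in every library of either type. The test describes its fold in each library, without p-values. Genes that entered through 1 of the types only were more likely to be called higher in that type. Between genotypes, sums were tested with edgeR 4.0.16 (filterByExpr, TMM, quasi-likelihood test, Benjamini-Hochberg adjustment over all genes tested), with DESeq2 1.42.0 as an alternative, in R 4.3.3. Intervals of changes used edgeR's SE with 2 residual degrees of freedom, fewer than the test itself used, which widens them. Sub-clusters were made with scanpy 1.11.5 (Leiden resolution 0.6, 1500 variable genes, 20 principal components). Scripts were tested on simulated data. p-values measure the spread between pools. Replicates differed by more than sampling noise (chi-square per degree of freedom 3.38 for WT and 2.91 for Tbx1+/-).

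The replicate numbers mark the 2 batches of animals described in the study's methods, and deviations of same-numbered libraries from their group means correlated at 0.258 over 8707 genes. Genes were named by rule: listed genes, the 25 leading genes, the 12 largest and 12 smallest against each of 3 near types, the 5 smallest p between genotypes, and leading genes of sub-clusters. Members and lists were chosen with earlier results of these data known. Of 32285 features, 32158 were found in GENCODE vM21 by identifier. Some genes and types are not reported here.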

Additional observations from a re-analysis of the deposited data

Results flagged for a closer look

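With 2 libraries per genotype no library could be tested as an outlier within its group. Differences whose sign was opposite in the 2 batches are given here, and none of these differences was tested. The share of the class among annotated nuclei changed by a log2 of -1.22 in batch 1 and of 0.66 in batch 2 (Tbx1+/- minus WT). The difference between batches, 1.88, was the largest of the 16 types, of which 11 had opposite signs. Gad2 changed by -0.13 and 0.03 in the 2 batches, a difference of 0.16. Gad1 changed by -0.04 and 0.19, a difference of 0.23. Zfhx3 changed by -0.05 and 0.20, a difference of 0.25. These were 3 of the 9 genes followed between genotypes, and 49.6% of all genes tested had the same sign in both batches.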

How the results depend on the processing

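The 25 leading genes kept their direction under all 8 alternatives, and their median stayed between 3.89 and 3.95 when 1 library was left out. They were picked for the largest differences in these same nuclei, so their direction could hardly have turned. The number of genes called between genotypes was 0 under 11 of 18 alternatives, 5 without a filter on low counts (Hba-a1, Hba-a2, Hbb-bs, Hbb-bt and Ttr), 6 with the replicate block, 3 with the block and without the nucleus rich in haemoglobin RNA, and 0 to 9 with 1 library left out (0 to 3 without that nucleus as well). The replicate block changed no other call. Alternatives without that nucleus were chosen after seeing the data. The log2 difference of the class share turned from 0.02 to -0.0387 with TMM factors, -0.0186 with the 3 GABA interneuron types as the total, -0.24 with the replicate block, -0.0638 with Gad1 or Gad2 positive nuclei only, and -1.25 to 0.69 with 1 library left out. Changes near 0 turned as well. Gad2 was 0.0036 without the 8% of nuclei with the highest UMI count and -0.20 to 0.12 with 1 library left out. Gad1 was 0.037 in DESeq2, 0.11 with the block, 0.0013 without the haemoglobin nucleus and -0.32 to 0.42 with 1 library left out, and Zfhx3 was -0.0457 to 0.23. The causes were not tested. Each call rests on 4 pools, and the 49 nuclei of Tbx1+/- library 1 limit the depth of the comparison.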

Other observations

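The Progenitors type (152 nuclei) shared several high genes with the class, and for the genes named here its values were not given above. Gabra3 averaged 128 CPM in Progenitors and 161 CPM in the class, Scn1a 329 and 334 CPM, Scn9a 257 and 282 CPM, Slc12a5 167 and 133 CPM, and Grm5 1264 and 1233 CPM. Both decarboxylase genes were low in Progenitors, where Gad1 averaged 6.89 CPM and Gad2 8.23 CPM. Meis2, a homeobox factor, averaged 1525 CPM in Progenitors and 3.86 CPM in the class. No test was made, since both types were built from the expression of these nuclei.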
